A study of Mus musculus with 2 samples.

Results

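The BCL2 family decides whether a cell's mitochondria release the proteins that start caspase-driven death. The 10 genes described here are Bbc3, which encodes PUMA, Pmaip1, which encodes NOXA, Bid and Bcl2l11, which encodes BIM, then Bax, Bak1 and Bok, and finally Bcl2, Bcl2l1, which encodes BCL-XL, and Mcl1. They were chosen by name for their place in the family, with earlier results of these data known, from 21887 protein-coding genes of the RefSeq annotation of GRCm38.p6, the build called mm10 in the submitters' processing notes. For each gene, DPPA2 peaks were taken whose summit lay inside the gene, within 1 kb of either gene end, or up to 100 kb away. This gave 9 of 7043 peaks in the untreated library and 29 of 16229 in the adriamycin library.

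PUMA, NOXA, BID and BIM are BH3-only proteins, which sense stress and engage the other members. BAX and BAK form the pore in the outer mitochondrial membrane, and BOK is a related effector. BCL2, BCL-XL and MCL1 hold the effectors and the BH3-only proteins in check. After DNA damage p53 activates Bbc3, Pmaip1 and Bax in many cell types, and embryonic stem cells are known to be quick to die from such damage.

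DPPA2 binds DNA in pluripotent cells and early germ cells and is known to associate with CpG-rich gene starts. Its binding in the mouse embryonic stem cell line R1/E, grown on gelatin in serum with leukemia inhibitory factor, was measured by ChIP-seq with the same antibody in 2 libraries. Both libraries are of p53+/+ cells by the study's design. The untreated library is labelled WT, with control as its treatment. The other library is labelled adriamycin 8h, with apoptosis induction as its treatment, and was made after 8 h of this DNA-breaking topoisomerase II inhibitor; its genotype entry repeats the treatment.  With 1 library per group no difference between them could be tested, and all differences given here are between 2 libraries. Binding data hold no expression values, so neither the cell type nor the RNA level of any member was checked here.

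The deposited peak lists give a fold (summit over local background) and a −log10 p for each peak, and from these the number of fragments at the summit could be recovered. The median summit held 14 fragments in both libraries. The lowest local background recovered at a listed peak was 1.19 fragments untreated and 1.03 with adriamycin. It was taken as the genome-wide background, and read totals were not used here. Summit heights are followed by an exact 95% Poisson interval in parentheses, which covers counting error only. Folds rank peaks within a list, and folds from different lists show no change.

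With adriamycin, 3 of the 10 members had a summit within 1 kb of a gene end (Bbc3, Bid and Bcl2), and untreated 1 did (Bok). Over all protein-coding genes the share with such a summit was 16.0% with adriamycin and 5.78% untreated. In a family of 10 a single gene moves the share by 10 percentage points, so neither count is read as a departure from its background. No member had a gene-end peak in both lists. Over all protein-coding genes the share with both can be at most the untreated 5.78%, so this is not read as a result about the members. By class, 2 of 7 pro-death and 1 of 3 pro-survival members had one with adriamycin, and 1 of 7 and 0 of 3 without it. The adriamycin list is longer, at 16229 peaks against 7043. Shortened to equal length, and likewise at a fold of at least 5, it kept 1 of the 3 members, Bbc3, so the pro-survival count fell to 0. Pro-death and pro-survival members were not compared further at these numbers. The summits nearest to the 1 kb limit were those of Bok at 977 bp and Bbc3 at 959 bp on the inner side, and a further Bbc3 summit at 2856 bp on the outer side.

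**Figure D1:**
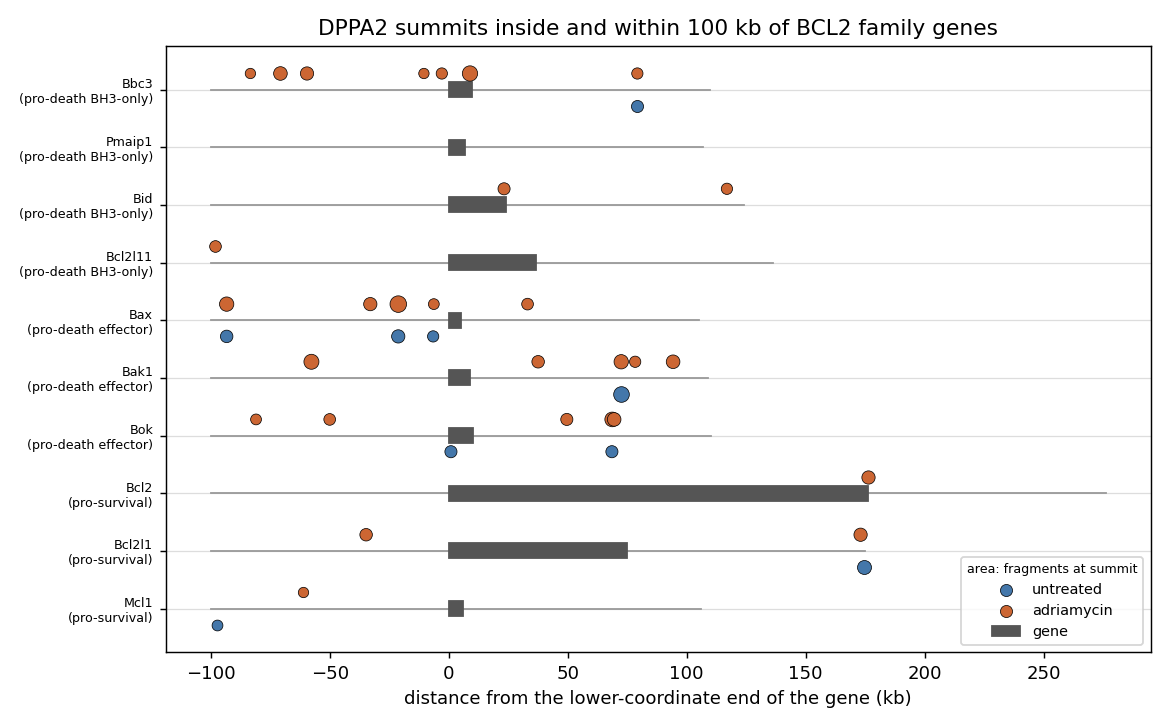
Each row is 1 BCL2 family gene, drawn as a grey box on an axis of distance in kb from its lower-coordinate end, with a line reaching 100 kb to each side. Circles are DPPA2 summits, adriamycin above and untreated below the line, with area in proportion to the fragments at the summit; Pmaip1 has none, and the Bbc3 row has 7 summits with adriamycin and 1 without.

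The strand of each gene places these peaks at different parts of the gene. RefSeq start positions were matched for 9 of the 10 members, all but Pmaip1. The Bcl2 peak lay on the gene's start, the Bid and Bok peaks lay just downstream of theirs, and the Bbc3 peak lay at the far end of the gene. Counted over listed starts alone, 2 of 9 members had a summit within 1 kb with adriamycin, against 15.8% of genes with a listed start, and 1 of 9 untreated, against 5.91%. The sequences before 4 of these starts follow, because 3 of them belong to starts with a summit within 1 kb and the Bbc3 start had none. Each is the 250 bases that end just before the start, read 5′ to 3′ on the gene's strand from the RefSeq promoter table of GRCm38.p6, with CpG dinucleotides in capitals. Bcl2 is on the minus strand at chr1:106714291-106714540, Bid on the minus strand at chr6:120916825-120917074, Bok on the plus strand at chr1:93685325-93685574, and the lowest-coordinate of 3 listed Bbc3 starts on the plus strand at chr7:16309333-16309582.
Bcl2: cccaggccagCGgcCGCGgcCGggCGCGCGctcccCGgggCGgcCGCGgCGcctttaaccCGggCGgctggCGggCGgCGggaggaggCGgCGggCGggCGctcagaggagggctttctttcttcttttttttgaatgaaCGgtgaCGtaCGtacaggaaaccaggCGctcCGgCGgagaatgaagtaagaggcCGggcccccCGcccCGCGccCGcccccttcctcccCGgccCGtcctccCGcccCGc
Bid: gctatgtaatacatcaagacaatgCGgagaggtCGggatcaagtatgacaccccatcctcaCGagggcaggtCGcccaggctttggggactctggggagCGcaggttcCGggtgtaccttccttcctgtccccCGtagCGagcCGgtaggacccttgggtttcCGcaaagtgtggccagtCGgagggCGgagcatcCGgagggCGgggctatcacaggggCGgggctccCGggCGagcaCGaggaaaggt
Bok: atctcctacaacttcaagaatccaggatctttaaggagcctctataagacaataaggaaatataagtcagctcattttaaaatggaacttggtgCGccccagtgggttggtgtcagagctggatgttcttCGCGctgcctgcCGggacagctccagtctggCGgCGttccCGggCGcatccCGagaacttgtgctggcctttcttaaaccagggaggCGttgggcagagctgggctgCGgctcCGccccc
Bbc3: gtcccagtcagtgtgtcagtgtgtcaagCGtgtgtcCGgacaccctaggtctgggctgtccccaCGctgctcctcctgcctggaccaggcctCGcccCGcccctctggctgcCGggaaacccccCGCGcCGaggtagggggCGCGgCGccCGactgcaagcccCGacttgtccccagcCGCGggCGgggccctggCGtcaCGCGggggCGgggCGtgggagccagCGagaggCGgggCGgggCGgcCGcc

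These windows held 36 CpG dinucleotides at Bcl2, 27 at Bbc3, 18 at Bid and 12 at Bok, against a median of 10 (quartiles 3.00 and 19.0) over 21263 starts of protein-coding genes. In the Bcl2 sequence the CpGs are densest toward both ends, with a T-rich stretch between them. The adriamycin peak covered 234 of its 250 bases, and the summit fell on base 188 counted from the 5′ end. None of the other 3 sequences was reached by a peak in either list.

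Among the BH3-only genes, Bbc3 (chromosome 7, 16308398 to 16318334, 9.94 kb long) had the strongest gene-end peak of the family. PUMA binds all the pro-survival proteins and is a main killer in p53-driven death. The adriamycin peak at 16317232 to 16317708 had its summit inside the gene, 959 bp before its 3′ end and 6944 bp downstream of the nearest listed start. It held 24 fragments (15.4 to 35.7) over a local background of 2.96, a fold of 6.31 and a −log10 q of 10.7, which ranked it 2073 of 16229. The nearest untreated summit was 70.3 kb from it. Scaled to the untreated background, an equal site would have held 27.9 fragments (17.8 to 41.4), and 12 would have been enough for the untreated list. This interval leaves out the error of the other library and any spread between samples, as do those set against listing limits at Bid, Bok and Bcl2. These sites were also picked for being listed, which favours high counts. The limits therefore do not show that a site was absent from the other library.

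Bbc3 also had more adriamycin summits around it than any other member. In all, 7 lay inside or within 100 kb, against a median of 2.00 over all genes, and 1 untreated summit did, against a median of 1.00. Upstream of the gene, summits of 13 fragments (6.92 to 22.2) and 11 fragments (5.49 to 19.7) lay 2856 and 10381 bp before its 5′ end, with ranks of 11676 and 15495. These are weak entries of the list, and no protein-coding gene had an end nearer to them than Bbc3. The other 4 lay 59.5 to 83.3 kb away. Of these, summits of 18 and 19 fragments fell inside the complement receptor genes C5ar1 and C5ar2. The one called in both lists was at an end of Sae1, a SUMO-activating enzyme gene, 69.3 kb from Bbc3 untreated and 69.4 kb with adriamycin, with 15 (8.40 to 24.7) and 13 (6.92 to 22.2) fragments.

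Bid (chromosome 6, 120893119 to 120917062) encodes the protein that links death receptors to mitochondria once caspase-8 cleaves it. Its adriamycin peak at 120916326 to 120916525 had its summit 413 bp downstream of the listed start and 651 bp inside the gene's 5′ end. It held 15 fragments (8.40 to 24.7) over a background of 2.36, a fold of 4.76 and a rank of 8451 of 16229, near the middle of the list. The nearest untreated summit was 781 kb away. An equal site would have held 17.4 fragments (9.74 to 28.7) in the untreated library, where 11 sufficed for listing. That limit lies inside the interval. A second adriamycin summit of 13 fragments lay 93.0 kb upstream, inside Mical3.

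Pmaip1 and Bcl2l11 had no peak at or in the gene in either list. Pmaip1 (chromosome 18, 66458604 to 66465558) was the 1 member without a summit within 100 kb in either list, with the nearest at 167 kb with adriamycin and 416 kb untreated. Over all genes, 81.5% had a summit inside or within 100 kb with adriamycin and 52.3% untreated. NOXA, its product, binds MCL1 above all and is a p53 target like PUMA. Bcl2l11 (chromosome 2, 128126038 to 128162547), whose product BIM binds every pro-survival member, had 1 adriamycin summit of 14 fragments (7.65 to 23.5) 98.0 kb upstream, inside Acoxl, and its nearest untreated summit was 455 kb away. Of the 2 BH3-only genes that p53 is best known to induce, Bbc3 had 7 adriamycin summits in its window and Pmaip1 had 0. Most of those 7 lay 59.5 to 83.3 kb from Bbc3 and nearer to an end of another gene. The window counts are therefore not read as a property of either gene.

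**Figure D2:**
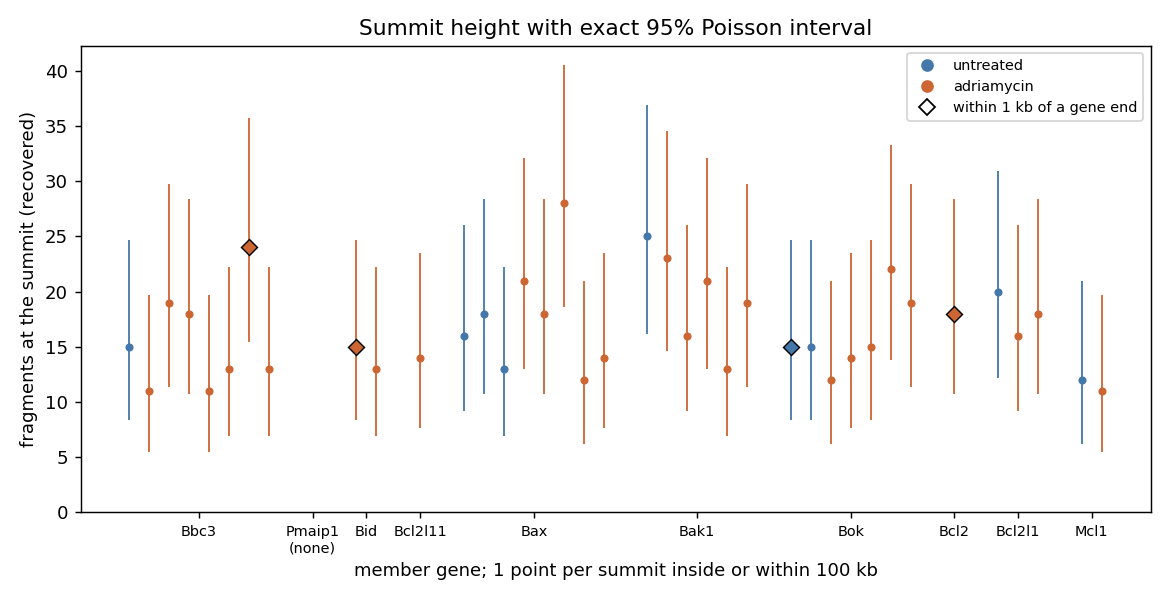
Fragments at the summit (y axis, recovered from the deposited fold and −log10 p) for each of the 38 summits in the windows of the members, with exact 95% Poisson intervals; diamonds lie within 1 kb of a gene end. The intervals of the 4 diamonds overlap one another, from Bbc3 at 24 fragments with adriamycin to Bok at 15 untreated.

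All 3 effectors had summits within 100 kb in both lists, 15 in all with adriamycin and 6 untreated. Each had 5 with adriamycin and 1 to 3 untreated, against medians of 2.00 and 1.00 over all genes. The medians over the 10 members were also 2.00 and 1.00. An effector was the gene with the nearest end for 0 of the 15 adriamycin summits. Bax (chromosome 7, 45461695 to 45466903) had none in the gene. Its nearest summits lay past its 3′ end, 6.21 kb away with adriamycin (12 fragments, 6.20 to 21.0) and 6.50 kb untreated (13 fragments, 6.92 to 22.2), both inside Gys1, a glycogen synthase gene. A stronger site in Gys1, 21.1 kb from Bax, held 28 fragments (18.6 to 40.5) with adriamycin and 18 (10.7 to 28.4) untreated. With a fold of 8.24 it was the highest in any member's window and ranked 787 of 16229. The intervals of the 2 libraries overlap. Another site called in both lists lay 93.3 kb away at an end of Lin7b, with 21 and 16 fragments.

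Bak1 (chromosome 17, 27019812 to 27028627) also had none in the gene. Of its 5 adriamycin summits 4 lay upstream inside Itpr3, a calcium release channel gene, the nearest at 28.8 kb with 16 fragments (9.15 to 26) and 424 bp from an end of Itpr3. One of them was called in both lists, 63.7 kb from Bak1 with adriamycin and 63.6 kb untreated, with 21 (13 to 32.1) and 25 (16.2 to 36.9) fragments. The summit 85.5 kb away stood on a local background of 5.54 fragments, 5.39 times the genome-wide value, and had the lowest fold of all member sites, 3.06.

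Bok (chromosome 1, 93685575 to 93695770) was the member called at a gene end in the untreated list and not with adriamycin. Its peak at 93686408 to 93686655 had a summit 977 bp downstream of the start, with 15 fragments (8.40 to 24.7) over a background of 3.42. The fold of 3.62 and rank of 6325 of 7043 make it a weak entry of that list. The nearest adriamycin summit was 48.7 kb from it. Scaled to the adriamycin background, an equal site would have held 12.9 fragments (7.23 to 21.3), and 11 would have been enough for listing, a limit inside the interval. A site at an end of Thap4 was called in both lists, 58.4 kb from Bok untreated (15 fragments, 8.40 to 24.7) and 58.5 kb with adriamycin (22 fragments, 13.8 to 33.3).

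Of the pro-survival genes, Bcl2 (chromosome 1, 106538176 to 106714290, 176 kb long) had the peak closest to a start of all members. The adriamycin peak at 106713967 to 106714524 spanned the start shown above, with the summit 63 bp upstream. It held 18 fragments (10.7 to 28.4) over a background of 3.16, a fold of 4.57 and a rank of 7396 of 16229. The nearest untreated summit was 406 kb from the gene. An equal site would have held 20.9 fragments (12.4 to 33.0) in the untreated library, where 13 sufficed, a limit inside the interval. No summit was called inside Bcl2 in either list. Among genes over 50 kb long, 59.5% had a summit inside or at an end with adriamycin and 30.4% untreated.

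Bcl2l1 and Mcl1, the other pro-survival genes, had no peak at or in the gene in either list. Bcl2l1 (chromosome 2, 152758732 to 152833803) had adriamycin summits 34.7 kb past its 3′ end (16 fragments, 9.15 to 26) and 98.0 kb upstream (18 fragments, 10.7 to 28.4), and an untreated summit 99.3 kb upstream (20 fragments, 12.2 to 30.9). Both upstream summits lay within 1 kb of an end of the forkhead gene Foxs1, but the peaks did not overlap. Mcl1 (chromosome 3, 95656944 to 95663179), whose short-lived product guards against BAK, had 1 summit in each list, 61.0 kb away inside Golph3l with adriamycin (11 fragments, 5.49 to 19.7) and 97.5 kb away at an end of Hormad1 untreated (12 fragments, 6.20 to 21.0).

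Taking gene bodies as well as ends added no member, with 3 of 10 called after adriamycin and 1 of 10 untreated, against 30.2% and 13.2% of all genes. By length, 5 members were under 10 kb (Bbc3, Pmaip1, Bax, Bak1 and Mcl1), a class in which 12.1% of genes had such a summit with adriamycin and 4.39% untreated. Bid, Bcl2l11 and Bok were between 10 and 50 kb, where the shares were 30.2% and 11.6%. Within 100 kb, 9 of 10 members had a summit with adriamycin and 6 of 10 untreated, again against 81.5% and 52.3% of all genes. The median distance to the nearest summit was 31.7 kb for the members and 21.9 kb for all genes with adriamycin, and 98.4 and 91.5 kb untreated.

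**Figure D3:**
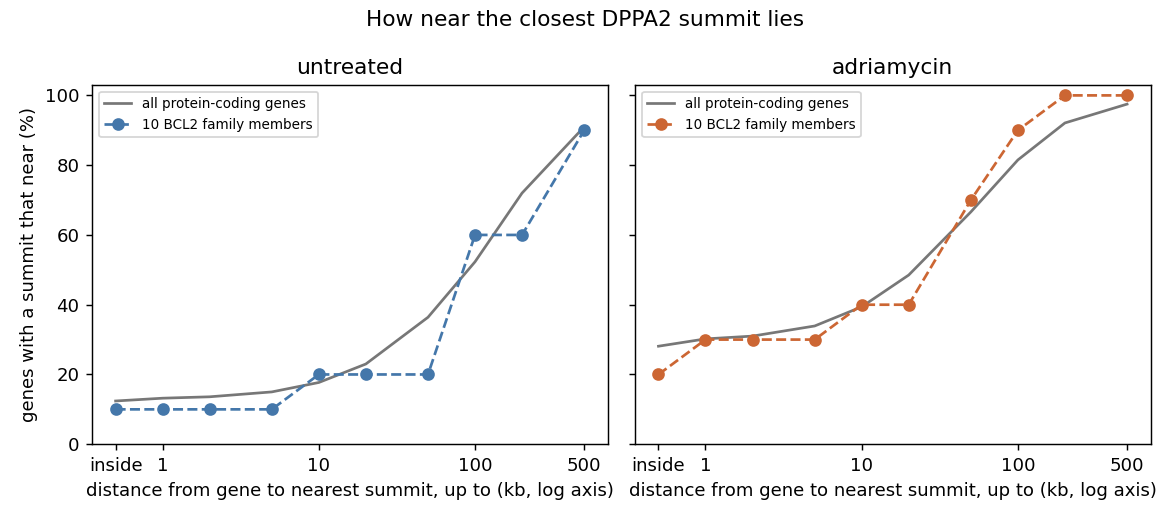
Share of genes (y axis, %) whose nearest DPPA2 summit lies inside the gene or up to a given distance (x axis, kb, log scale), for the 10 members and for all protein-coding genes, in the untreated (left) and adriamycin (right) lists. Members run above or below the line of all genes, in steps of 1 gene; up to 50 kb, 2 of 10 members and 36.4% of genes have an untreated summit.

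Most of the summits around the members belonged by position to other genes. Of the 26 adriamycin summits that were neither in a member nor within 1 kb of its ends, 22 lay inside or at an end of another protein-coding gene and 4 between genes. All 8 such untreated summits lay inside or at an end of another gene. Within 1 kb of another gene's end lay 5 of these 8 and 6 of the 26 adriamycin summits. Of all summits, 17.0% untreated and 20.5% with adriamycin lay within 1 kb of a gene end. Of all summits in the lists, 55.4% with adriamycin and 48.1% untreated lay inside or at the end of a gene. The member was the gene with the nearest end for 6 of 29 adriamycin summits (3 of them of Bbc3) and 1 of 9 untreated summits. A distance of up to 100 kb from a member therefore does not assign a peak to it.

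Some sites around the members were called in both lists. Of the 9 untreated summits 6 lay in peaks that overlapped an adriamycin peak by at least 1 bp (66.7%, against 79.7% of the whole untreated list), 3 near Bax and 1 each near Bbc3, Bak1 and Bok. These made up 6 of the 29 adriamycin summits (20.7%, against 34.4% of the whole list). Around pro-death members 6 of 7 untreated and 6 of 25 adriamycin summits had an overlapping counterpart. None of the 6 summits around pro-survival members had one (4 with adriamycin and 2 untreated). The classes are not compared on so few summits. The median fold in the members' windows was 4.57 with adriamycin and 5.00 untreated, and in the whole lists 5.10 and 5.16.

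Members with a summit at a listed start were then set beside the CpG content before it. A start was called CpG-rich when the 250 bases before it had a GC share of at least 55% and an observed over expected CpG ratio of at least 0.6. This held for 6 members (Bbc3, Bid, Bcl2l11, Bok, Bcl2 and Mcl1), of which 2 had an adriamycin summit within 1 kb of a listed start and 1 an untreated one. Of all genes with a CpG-rich start, 28.1% had one with adriamycin and 10.4% untreated, and of genes without one, 7.68% and 2.95%. Bax, Bak1 and Bcl2l1, without a CpG-rich start, had no such summit in either list. This split rests on limits set after the data were seen. Bok passed narrowly, with a GC share of 55.2% and a ratio of 0.631 at 12 CpGs. Bax, with 14 CpGs and a ratio of 0.769, missed on its GC share of 54.0%. The starts of Mcl1 and Bcl2l11 had no peak with 26 CpGs and with 24 and 30. The most CpG-dense of the Bbc3 starts held 37 CpGs, 1 more than the Bcl2 start, and the summit nearest to any Bbc3 start was 4041 bp away, with adriamycin.

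**Figure D4:**
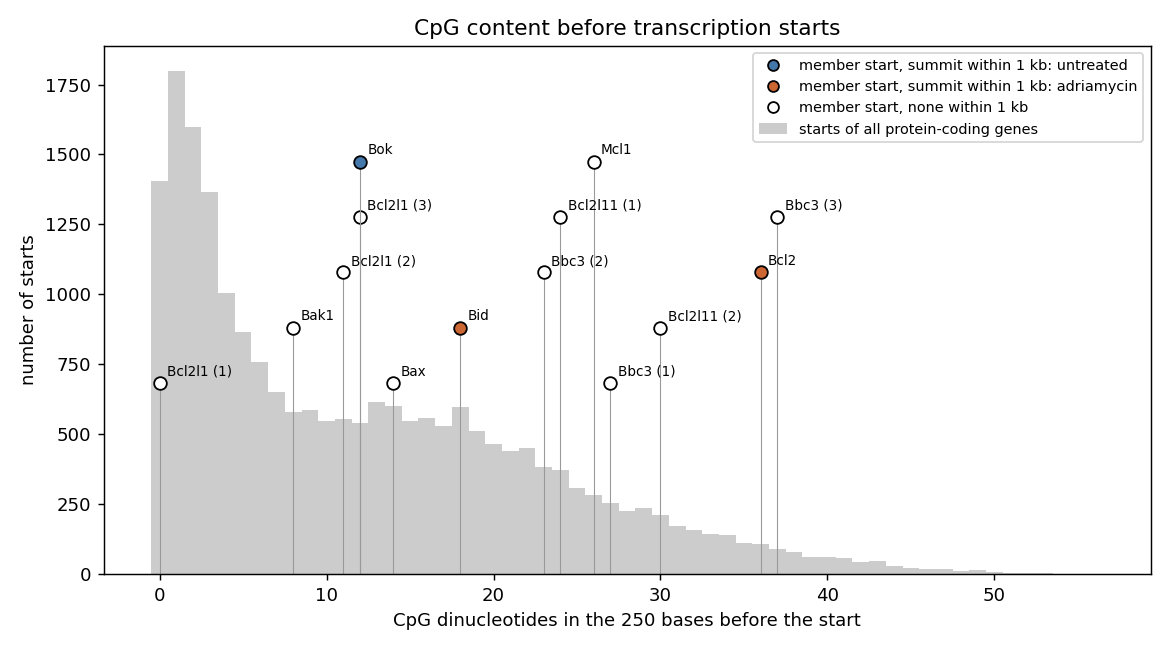
Number of CpG dinucleotides in the 250 bases before each listed transcription start (x axis) for all protein-coding genes (grey bars, number of starts on the y axis) and for the 14 listed starts of 9 members (circles, numbered by coordinate where a gene has several; their height has no meaning). Filled circles have a summit within 1 kb: Bcl2 at 36 and Bid at 18 CpGs with adriamycin, and Bok at 12 untreated.

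Short motifs were searched in the same windows on both strands. The GC box GGGCGG was present before 10 of the 14 member starts, against 42.6% of all starts, and occurred 7 times before Bcl2, which had a peak there, and 7 times before the third Bbc3 start, which had none. The windows of the second and the third Bbc3 start overlap, so the 14 are not separate sequences. The p53 half-site consensus was found before 1 member start, that of Bax, against 6.31% of all starts, and no member start held a pair of half-sites spaced as a full site (0.0470% of all starts). The Bax sequence is shown because its match is the single one among the 14 member starts. The half-site is in capitals from base 50, on the minus strand at chr7:45466899-45467148.
Bax: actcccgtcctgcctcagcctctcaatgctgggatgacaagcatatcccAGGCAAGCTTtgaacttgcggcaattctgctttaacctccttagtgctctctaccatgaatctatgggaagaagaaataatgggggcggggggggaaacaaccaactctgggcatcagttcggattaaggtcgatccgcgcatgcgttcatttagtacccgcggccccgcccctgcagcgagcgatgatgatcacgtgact

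No DPPA2 summit lay nearer than 11417 bp to this start in either list. A motif match describes these letters and is not a bound site, and p53 binding was not analysed here.

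Other genes of the pathway were looked at from 3 lists. Among 15 further BCL2 family genes 1 had a gene-end peak with adriamycin and 0 untreated. This was Bnip3l, which encodes the mitophagy receptor NIX, with a peak at chromosome 14, 67008561 to 67008810, 195 bp from a gene end and of 12 fragments (6.20 to 21.0). The BH3-only genes Bad, Bik, Bmf and Hrk and the pro-survival genes Bcl2l2, Bcl2a1a, Bcl2a1b, Bcl2a1d and Bcl2l10 had none in either list. Bcl2l12 had an adriamycin summit inside the gene, 1723 bp from an end, with 25 fragments, and this gene was named after its value was seen. Bcl2l13 shares its genomic neighbourhood with Bid, and its nearest adriamycin summit, 23.6 kb from its end, was the Bid peak.

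Among 10 regulators and partners of the family 1 had a gene-end peak with adriamycin and 0 untreated. This was Fbxw7, the substrate receptor of a ubiquitin ligase that marks MCL1 for destruction, with 10 fragments (4.80 to 18.4) at chromosome 3, 84814518 to 84815007. Its summit lay 52 bp outside the gene's 5′ end and 639 bp from the nearest listed start. Trp53 itself had none. Trp73, a p53 relative named after its values were seen, had 2 summits inside the gene in each list. An untreated summit lay 21 bp from a listed internal start, with 15 fragments (8.40 to 24.7). The adriamycin summit nearest to a listed start was 7743 bp from it, also with 15 fragments (8.40 to 24.7).

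Among 7 genes acting downstream of the mitochondrial pore 1 had a gene-end peak with adriamycin and 0 untreated. This was Endog, which encodes a mitochondrial nuclease, with 15 fragments (8.40 to 24.7) and a summit 152 bp from its listed start. Apaf1, Cycs and Casp9, which together form or drive the apoptosome, had none, and Diablo, Htra2 and Xiap had none either. Over the 3 lists 3 of 32 genes had a gene-end peak with adriamycin and 0 of 32 untreated, beside the 16.0% and 5.78% of all genes.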

How the data were processed

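DPPA2 ChIP-seq peak lists of 1 untreated and 1 adriamycin library were used as deposited; groups came from the treatment label of the first and the title of the second, whose genotype entry holds its treatment. Both carry the same batch entry. Tools named in the submitters' processing notes are MACS3 3.0.0b1, deepTools 3.5.1, SAMtools, Bowtie2 2.5.1 and FastQC 0.12.1, with mm10 as build; whether the caller had an input control is not given in the sources used here. All local backgrounds above the genome-wide value (6156 untreated, 14586 adriamycin) were whole multiples of 0.02 within 0.0005. Such steps arise where a ChIP library is its own background; folds would then carry no correction for input, which was not tested. The authors' peak caller gave the deposited fold ratio, −log10 p and −log10 q of each summit. The deposited score, used for nothing here, is a rounded −log10 q. A further deposited column gives the summit offset in bp. Peaks were called per library.

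Peaks off chromosomes 1 to 19, X and Y (126 untreated, 142 adriamycin) were left out. Summit fragments were recovered as the whole number that gives both fold (with a pseudocount of 1) and −log10 p (Poisson upper tail, within 0.001), for 99.9% of peaks in each list; the search was tested on simulated data. The lowest local background was taken as genome-wide. To set a site beside the other list, its fragments and background were multiplied by the ratio of genome-wide backgrounds (1.16 or 0.862) and set against the fewest fragments that would reach that list's lowest −log10 p (4.18 untreated, 3.83 adriamycin).

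Gene ends came from RefSeq GRCm38.p6; strand, starts and promoter sequence from its promoter table (17492 protein-coding genes). Exons were not used. Members, lists and limits were chosen with earlier results of these data known, and the CpG-rich class was set after the data were seen. All members are named, and from the other lists each gene with a gene-end peak. Some genes of the downstream list are not reported here and are left out of its counts. Alternatives were stricter peaks, equal list lengths, other windows and overlaps. Python 3.11.15, numpy 2.4.6, pandas 2.3.3, scipy 1.17.1 and matplotlib 3.10.9 were used.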

Additional observations from a re-analysis of the deposited data

How the results depend on the processing

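Leaving out a replicate was not run, since each group has 1 library. No paired analysis was possible because each group has 1 library and the labels give no replicate numbers. Of 80 alternative values 46 stayed within 1.5 times the main one and 34 moved. The cause was not tested except where fewer peaks or a narrower window leave fewer genes by construction.

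The adriamycin count of 3 members with a gene-end peak, and the same count with gene bodies, fell to 1 (Bbc3) at a fold of at least 5 and at equal list length, with 1 pro-death and 0 pro-survival members. At a q of at most 1e-05 it was 2 (Bbc3 and Bcl2), 1 of them pro-death. Within 500 bp it was 1 (Bcl2), with 0 pro-death members, and at listed starts 1 pro-death member (Bid) was left. The untreated count of 1 (Bok), pro-death, with or without gene bodies, fell to 0 at a q of at most 1e-05 and at a fold of at least 5, and to 0 within 500 bp. Over all genes the share within 500 bp was 12.2% with adriamycin and 4.08% untreated. At equal length each list had 1 pro-death member, Bbc3 with adriamycin and Bok untreated.

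Over all genes the gene-end counts of 1266 untreated and 3510 adriamycin became 459 and 1559 at a q of at most 1e-05, 468 and 1519 at a fold of at least 5, and 1253 adriamycin at equal length. Members with a summit within 50 kb were 2 of 10 untreated and 7 of 10 with adriamycin, against 36.4% and 66.6% of all genes. Within 10 kb they were 2 of 10 untreated and 4 of 10 with adriamycin, against 17.7% and 39.4%. At a q of at most 1e-05, member sites called in both lists went from 6 of 9 to 3 of 5 untreated. With adriamycin they went from 6 of 29 to 3 of 14. Summit fragments over the genome-wide background were 23.4 at Bbc3, 17.5 at Bcl2, 14.6 at Bid and 12.6 at Bok, against folds of 6.31, 4.57, 4.76 and 3.62 over local background, which put Bcl2 above Bid. No input profile or read total was used, and with 1 library per group no member can be told apart between lists by a test.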
